A study of Mus musculus with 36 samples.

Results

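Ago2-bound RNA was examined at 5 receptor genes of the intestinal crypt, Ephb2, Ephb3, Cd44, Lgr4 and Tnfrsf19, in mouse colonic tumours with and without oncogenic K-Ras. Every merged peak whose annotated target gene was a member was taken, which gave 17 of 7585 annotated peaks and 5 of 3933 genes. The 6 G12D tumours and 6 WT tumours are named after their K-ras allele. All tumours, in both groups, carried Halo-Ago2/+, Villin-CreER/+ and Apc(fl/fl) on C57BL/6, so the loss of Apc and the tagged Ago2 were shared. The Villin promoter drives the inducible Cre in gut epithelium, and 4-hydroxytamoxifen (5 mg/ml) was given as an enema at 8 to 12 weeks of age. Tumour lawns were taken from moribund mice, crosslinked with UV light and subjected to Halo-enhanced Ago2 pulldown, a CLIP method that isolates Ago2 with its bound miRNA and mRNA fragments. The series title gives the purpose as finding miRNA targets in these tumours. Each genotype had 3 tumours in batch 1 and 3 in batch 2, as labelled.

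Ago2 is the protein that carries miRNAs to messenger RNAs, and pairing runs mainly through bases 2 to 8 of the miRNA, the seed. In the intestinal crypt, Wnt signals keep the cells at the base proliferating. Ephb2 and Ephb3 are receptor tyrosine kinases, activated by Wnt signalling, that place cells along the crypt by repulsion from ephrin-B ligands higher up. Lgr4 binds R-spondins and so prolongs Wnt signalling, Cd44 is a hyaluronan receptor raised by Wnt signalling, and Tnfrsf19 (also called Troy) is a TNF receptor family member found on crypt stem cells.

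The annotated seed sites in the 17 peaks belonged to 35 miRNA families, of 88 families annotated in all peaks. A site of any class lay in 16 of the 17 peaks, against 88.6% of all annotated peaks. A 7mer or 8mer site lay in 15 of the 17, against 76.0% of all peaks, and an 8mer in 6, against 35.6%. The sites are the authors' annotation. Mature sequences are shown for the most abundant miRNA of each family with an 8mer in a receptor peak, of each family with sites in more than 1 of the genes, and of the families that stand at the peaks described most closely below. They are RefSeq sequences (GRCm38.p6), written 5′ to 3′ with the seed in capitals.
miR-24-3p (8mer in Tnfrsf19): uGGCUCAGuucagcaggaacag
miR-19b-3p (8mer in Ephb3 peak 3 and Cd44 peak 2): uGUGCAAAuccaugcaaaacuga
miR-29a-3p (a pair of 7mers in Ephb2 peak 1): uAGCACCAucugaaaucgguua
let-7i-5p (7mers in Ephb2 peak 2, Lgr4 peaks 1 and 5): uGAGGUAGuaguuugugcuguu
miR-196b-5p (7mer in Ephb2 peak 2): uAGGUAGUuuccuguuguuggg
miR-22-3p (7mer in Cd44 peak 1): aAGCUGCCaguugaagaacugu
miR-21a-3p (8mer in Cd44 peak 3): cAACAGCAgucgaugggcuguc
miR-194-5p (7mers in Cd44 peak 3 and Lgr4 peak 3): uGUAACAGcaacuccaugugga
miR-16-2-3p (7mers in Cd44 peaks 3 and 4): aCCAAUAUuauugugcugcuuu
miR-96-5p (8mer in Lgr4 peak 2): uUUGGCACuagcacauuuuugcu
miR-182-5p (7mer in Lgr4 peak 2): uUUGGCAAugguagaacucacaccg
miR-34a-5p (8mer in Lgr4 peak 4): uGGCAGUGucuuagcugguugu
miR-449a-5p (same seed as miR-34a-5p): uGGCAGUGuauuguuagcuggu
miR-218-5p (7mer in Lgr4 peak 5): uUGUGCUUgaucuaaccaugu

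Several of these seeds overlap. The let-7i-5p and miR-196b-5p seeds have the 6 letters AGGUAG in common, and families of both were annotated in Ephb2 peak 2 and Lgr4 peak 5. The seeds of miR-182-5p and miR-96-5p have UUGGCA in common, and both families were annotated in Lgr4 peaks 1 and 2. By the usual definition an 8mer pairs with the whole seed and adds an A, so the Tnfrsf19 site for miR-24-3p would read CUGAGCCA. On the same definition the sites in Ephb3 peak 3 and Cd44 peak 2 for miR-19b-3p would read UUUGCACA. These letters follow from the seeds and were not read from the peaks.

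The 17 peaks were 32 to 74 bases wide, with a median of 56, the median of all peaks. The annotation placed 10 in a 3′ UTR (51.9% of all peaks), 6 in another exon (32.2%) and 1 in an intron (12.1%). All 17 stood in the authors' G12D peak list, which holds 7569 peaks, and 7 in their WT list, which holds only 2186. The other 10, among them Ephb2 peak 1 and Cd44 peak 1, were therefore picked by a call in G12D libraries alone. The 2 lists come from libraries of unequal depth, so absence from the WT list does not by itself show a difference in binding. Values below are RPM, the reads of a peak per 1000000 reads in all peaks of the same library, which set each peak against all other peaks of that tumour. The mRNA libraries held 125384 to 974013 reads in peaks in G12D and 30607 to 770237 in WT. WT replicates 5 and 6, with 30607 and 57037 reads, stood apart: 59.8% and 34.0% of all peaks had no read there, against 1.14% to 5.85% in the other 10 libraries. The 10 strongest peaks held 47.8% and 14.2% of their reads, against 5.70% to 12.2% in the other 10 libraries. The median RPM of all peaks was 0 and 17.5 in these 2, against 49.3 to 60.8 in the others. Their RPM values are therefore not on quite the same scale. Of the 17 receptor peaks, 9 had no read in WT replicate 5 and 3 had none in WT replicate 6, against 1 such value in all other libraries. A count of 0 there allows up to 98.0 and 52.6 RPM (3 reads, counting error only). Peak values mix the amount of an RNA with its binding to Ago2, fewer cells of a type and less RNA per cell cannot be told apart in bulk tissue, and input libraries were not analysed here.

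Between the genotypes, Tnfrsf19 was the receptor with the lower signal in G12D tumours and Ephb2 and Cd44 were those with the higher, while the Ephb3 and Lgr4 means of the genotypes lay within 1 SD of each other. None of the 5 genes passed the threshold of the main test, limma on log2(RPM + 10) with batch as a covariate. That test called 0 of 7564 peaks and 0 of 3905 genes at an adjusted p of 0.05 (0% of either), and 0 of the 17 receptor peaks. At an unadjusted p of 0.05 it counted 811 peaks higher and 108 lower in G12D (10.7% and 1.43%), and 3 of the 17 receptor peaks (12.1% of all peaks in either direction). The log2 fold changes of all peaks had a median of 0.44, and those of all genes a median of 0.47. Without WT replicates 5 and 6 the medians were -0.0027 and 0.03. At an unadjusted p of 0.05 limma then counted 229 peaks higher and 320 lower in G12D, so the excess of higher peaks was not seen without those tumours. Differences are given below relative to the median of all peaks or genes of the same fit as well. On that relative scale 7 receptor peaks lay above 0 and 10 below, with a median of -0.23. The DESeq2 fits called more: 119 of 7653 peaks (1.55%) with DESeq2's own size factors and 787 (10.3%) with those implied by the deposited values.

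**Figure D1:**
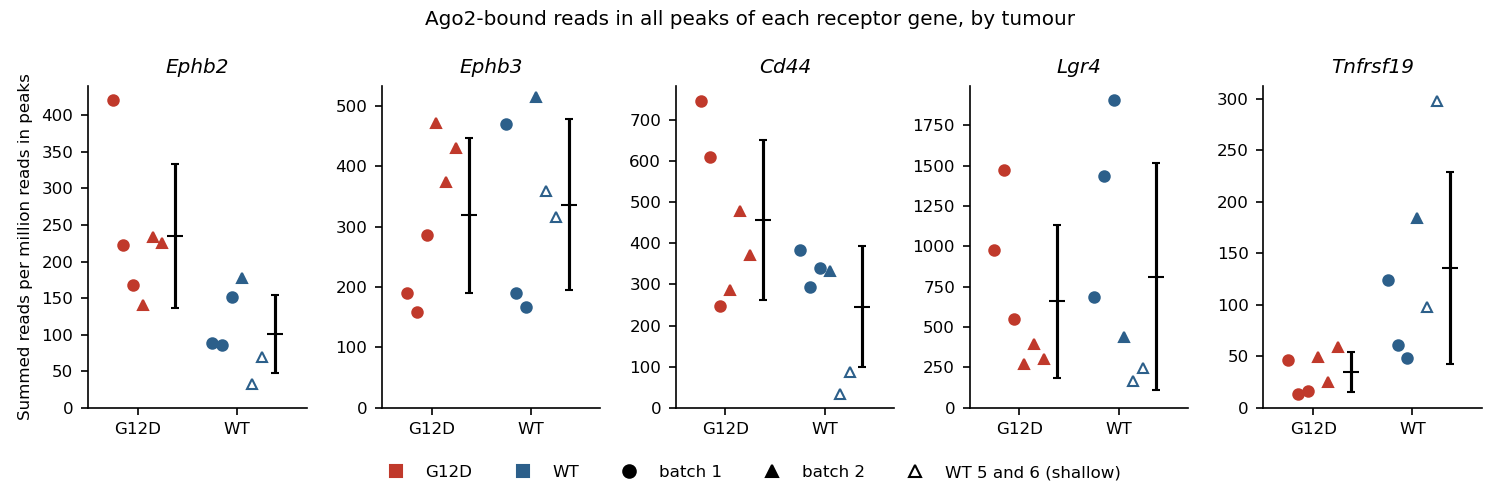
Summed RPM of each receptor gene (y axis, linear, a separate scale per gene) in the 6 G12D and 6 WT tumours, with mean and SD as black bars. Circles are batch 1, triangles batch 2 and open triangles WT replicates 5 and 6; Tnfrsf19 reaches 58.6 in G12D, and 5 of 6 WT tumours lie above that.

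Ephb2 was measured at 2 peaks. Peak 1 lay in an intron (chr4:136832857-136832911, minus strand, mm10) and peak 2 in an exon (chr4:136657526-136657584). Summed over both, Ephb2 had a lowest, median and highest value of 140, 224 and 421 RPM in G12D tumours, against 32.7, 87.2 and 178 RPM in WT tumours. Of the G12D tumours 4 exceeded every WT tumour, and G12D replicate 1 was the highest by far. The mean was 235 ± 98.3 RPM in G12D and 101 ± 53.8 RPM in WT (SD, n = 6 each). The log2 fold change was 1.21 ± 0.42 (SE), 0.74 above the median of all genes, with an adjusted p of 0.354 in limma. Within batches the relative value was 1.12 in batch 1 and 0.36 in batch 2. In DESeq2 with deposited size factors, which called 606 genes higher (15.5% of 3915), Ephb2 had an adjusted p of 0.0199 and Cd44 one of 0.045.

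The intronic Ephb2 peak, which carries the pair of miR-29-3p sites, had 13.8, 52.2 and 87.1 RPM in G12D tumours, against 0, 2.00 and 44.1 RPM in WT tumours (lowest, median, highest). Its log2 fold change was 1.66 ± 0.51 (SE; adjusted p = 0.386 in limma). This peak stood in the G12D list only, so it was picked in the genotype where it is high. The ranges overlap, since the 2 lowest G12D tumours lie below the highest WT tumour. Relative to all peaks the log2 fold change was 1.21 with all tumours and 0.99 without WT replicates 5 and 6. The exonic peak 2 had 85.9, 160.3 and 401 RPM in G12D tumours, against 32.7, 78.0 and 148 RPM in WT tumours, a log2 fold change of 0.91 ± 0.47 (SE; adjusted p = 0.425 in limma). Its relative value was 0.98 in batch 1 and -0.06 in batch 2. In the authors' deposited table the log2 fold changes of Ephb2 peaks 1 and 2 were 2.11 and 1.59, with adjusted p-values of 0.0194 and 0.0482. That table has a median log2 fold change of 0.85 over all peaks, and 755 peaks higher in G12D (9.92% of the 7613 with an adjusted p) against 27 lower (0.355%).

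Ephb3 was measured at 5 peaks, all in the 3′ UTR and all within 642 bases (chr16:21222559-21223200, plus strand). Its summed level was 158, 330.4 and 473 RPM in G12D tumours, against 168, 337 and 515 RPM in WT tumours. The groups overlap over nearly their whole range. The mean was 319 ± 129 RPM in G12D and 336 ± 142 RPM in WT (SD, n = 6 each), and the log2 fold change was -0.07 ± 0.35 (SE; adjusted p = 0.923 in limma), which is -0.54 relative to all genes.

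The strongest Ephb3 peak was peak 4 (chr16:21223044-21223099), with sites for miR-18-3p and miR-484. It had 51.4, 179 and 247 RPM in G12D tumours, against 55.9, 186 and 292 RPM in WT tumours, and held 48.5% ± 8.97 of the gene's reads in G12D and 50.1% ± 10.2 in WT (SD, n = 6 each). The next peak upstream, peak 3, is the narrowest of all the receptor peaks at 32 bases and carries the miR-19-3p 8mer and a miR-26-5p 6mer. Its values were 7.98, 27.8 and 35.9 RPM in G12D tumours, against 6.13, 33.9 and 66.4 RPM in WT tumours. Peak 2 (miR-484) and peaks 3 and 4 had relative log2 fold changes of -0.73, -0.65 and -0.55. Peak 1 (miR-362-5p) and peak 5, which has no annotated seed site, were at -0.01 and 0.23. The smallest adjusted p of the 5 in limma was 0.560.

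The log2 ratio of Ephb2 to Ephb3, each taken as RPM + 10, was -0.40 ± 1.01 in G12D tumours and -1.68 ± 1.03 in WT tumours (SD, n = 6 each), a difference of 1.28. Without WT replicates 5 and 6 the WT mean was -1.24 and the difference 0.84. In WT replicate 5 the ratio rests on 1 read of Ephb2 and 11 of Ephb3, and in WT replicate 6 on 4 and 18 reads. This ratio was chosen after the values were seen and is given with no test.

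**Figure D2:**
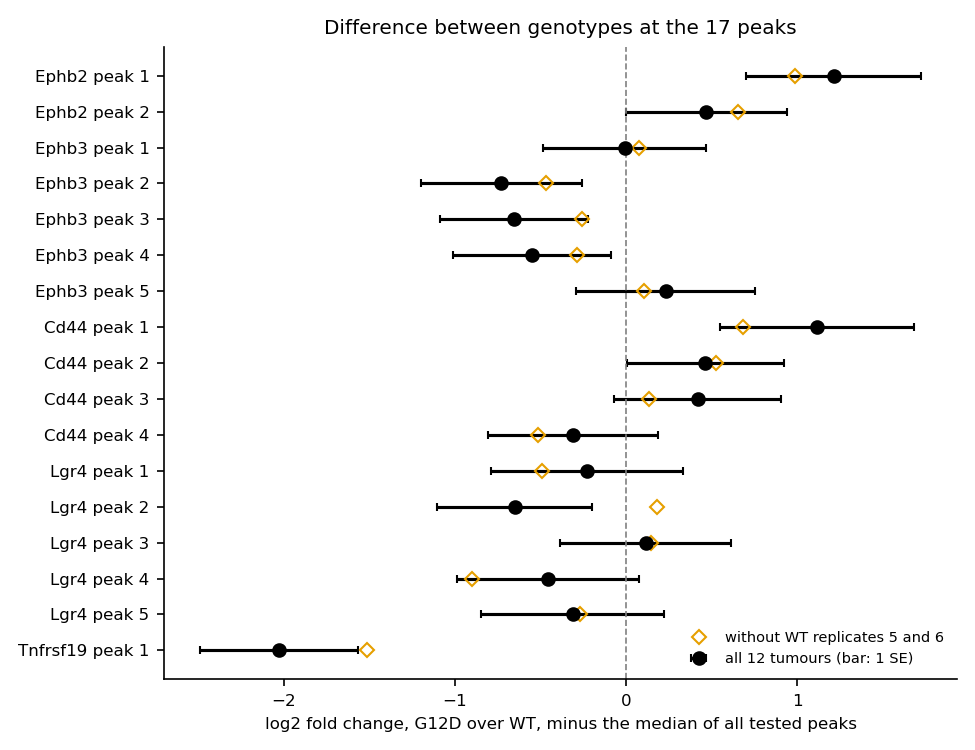
Log2 fold change of each receptor peak, G12D over WT, after subtraction of the median of all tested peaks (x axis), for all 12 tumours (black, bar 1 SE) and without WT replicates 5 and 6 (open diamonds). Tnfrsf19 lies at -2.03 and -1.52, and Ephb2 peak 1 and Cd44 peak 1 at 1.21 and 1.12 with all tumours.

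Lgr4 was measured at 5 peaks (chromosome 2, plus strand), 3 in exons and 2 in the 3′ UTR, and its level differed more between batches than between genotypes. Summed over its peaks, Lgr4 had 272, 473 and 1472 RPM in G12D tumours, against 163, 562 and 1905 RPM in WT tumours. The mean was 662 ± 474 RPM in G12D and 812 ± 704 RPM in WT (SD, n = 6 each), and the log2 fold change was -0.06 ± 0.39 (SE; adjusted p = 0.933 in limma). Both groups span a wide range, and the tumours sort by batch inside each. In batch 2 Lgr4 had 272, 299 and 396 RPM in G12D and 163, 245 and 436 RPM in WT. In batch 1 it had 550.3, 981 and 1472 RPM in G12D and 689, 1435 and 1905 RPM in WT. No batch 2 tumour reached the lowest batch 1 tumour.

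In the same limma fit, the log2 fold change of Lgr4 between batch 2 and batch 1 was -1.86 ± 0.39 (SE, adjusted p = 0.00586), with 690 of 3905 genes called (17.7%). Of the 17 receptor peaks, 2 were called between batches, against 22.7% of all peaks, and both lie in Lgr4. Peak 1 (chr2:109996557-109996609, exon) had 17.5, 148 and 247 RPM in batch 2, against 295, 883 and 1581 RPM in batch 1, a log2 fold change of -2.60 ± 0.56 (SE, adjusted p = 0.00343 in limma). Peak 4 (chr2:110013760-110013810, 3′ UTR) had 0, 18.3 and 54.5 RPM in batch 2, against 47.9, 106 and 208 RPM in batch 1, a log2 fold change of -2.29 ± 0.53 (SE, adjusted p = 0.00541 in limma). The batches do not overlap at peak 1 and overlap at peak 4 through the single deep WT tumour of batch 2. The other 3 Lgr4 peaks lay between -0.68 and -0.26, while the median of all peaks between batches was -0.35. Relative to that median, peaks 1 and 4 were at -2.25 and -1.93, and peaks 2, 3 and 5 at 0.09, -0.33 and -0.03. WT replicates 5 and 6 are both in batch 2, but the 3 deep G12D tumours of batch 2 show the same order: 142 to 176 RPM at peak 1, against 295 to 1183 RPM in batch 1. This batch comparison was added after the data were seen.

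**Figure D3:**
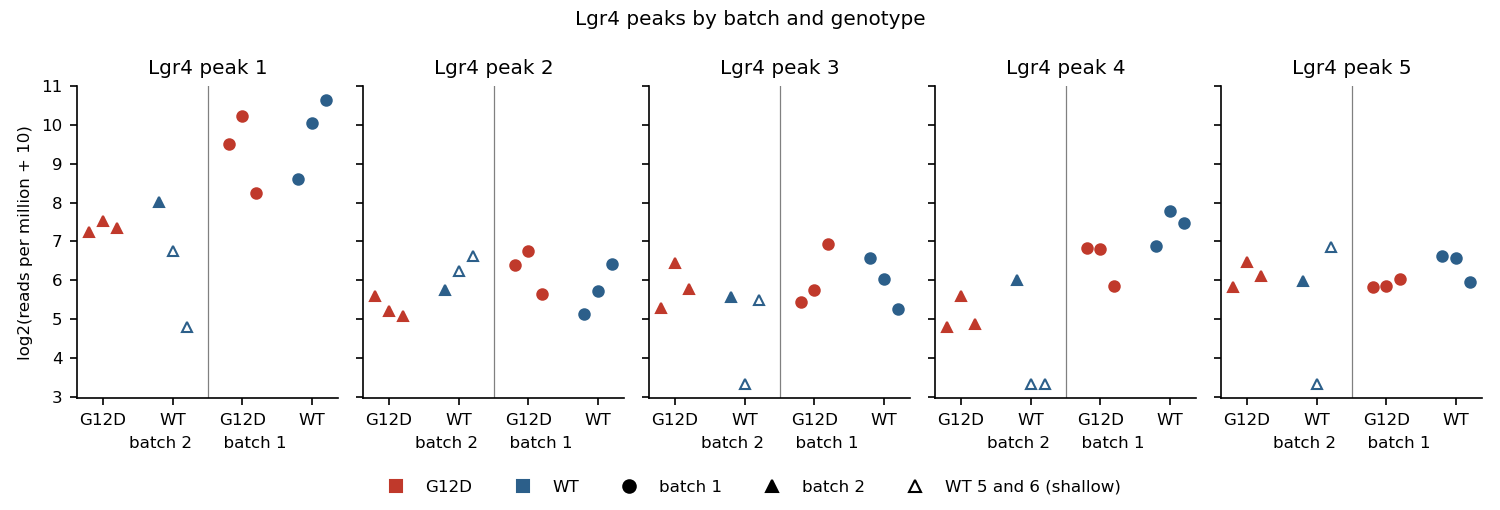
Log2(RPM + 10) of the 5 Lgr4 peaks (y axis) in each tumour, by batch and genotype. Batch 2 lies below batch 1 at peak 1, with 17.5 to 247 RPM against 295 to 1581 RPM, and most clearly at peaks 1 and 4.

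Lgr4 peak 1 carries a let-7-5p 7mer, with 6mers for miR-182-5p, miR-205-5p and miR-96-5p. The order of Lgr4 peak 1 and Ephb3 peak 4 depended on the batch. In batch 2 Ephb3 peak 4 exceeded Lgr4 peak 1 in 6 of 6 tumours, with means of 221 ± 43.4 and 139 ± 76.9 RPM (SD, n = 6). In WT replicates 5 and 6 that rests on 6 against 3 reads and on 10 against 1. In batch 1 Ephb3 peak 4 exceeded Lgr4 peak 1 in 0 of 6 tumours, with means of 119 ± 87.7 RPM at Ephb3 peak 4 and 868 ± 495 RPM at Lgr4 peak 1. Peak 2 (chr2:110002495-110002543), exonic or intronic by isoform, holds the miR-96-5p 8mer and sites for miR-103-3p and miR-182-5p. Peak 2 had 23.8, 39.0 and 96.8 RPM in G12D tumours, against 24.9, 54.7 and 87.7 RPM in WT tumours. Its relative log2 fold change of -0.65 with all tumours was 0.18 without WT replicates 5 and 6, and 0.48 and -1.80 in batches 1 and 2, so no direction held. Peak 3 (miR-194-5p) and peak 5 (let-7-5p, miR-218-5p and miR-193-3p) had relative values of 0.11 and -0.31. Peak 4, with the miR-34-5p and miR-449-5p 8mer, had 17.5, 42.9 and 104 RPM in G12D tumours, against 0, 81.2 and 208 RPM in WT tumours, with a relative value of -0.46 and an adjusted p of 0.990 in limma. That value was -0.90 without WT replicates 5 and 6, -0.03 in batch 2 and -0.90 in batch 1, and ran from -0.93 to -0.03 over the 26 settings. The genotypes overlap at every Lgr4 peak.

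Cd44 was measured at 4 peaks (chromosome 2, minus strand), 2 in exons and 2 in the 3′ UTR. Its summed level was 247, 425 and 746 RPM in G12D tumours, against 32.7, 314 and 384 RPM in WT tumours. Of the G12D tumours 3 exceeded every WT tumour, and the WT values of 32.7 and 87.7 RPM are those of replicates 5 and 6. The mean was 457 ± 194 RPM in G12D and 245 ± 147 RPM in WT (SD, n = 6 each), with a log2 fold change of 1.13 ± 0.48 (SE; adjusted p = 0.369 in limma). The relative value was 0.66 with all tumours and 0.36 without WT replicates 5 and 6.

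Cd44 peak 1 (chr2:102865360-102865424, exon, miR-22-3p 7mer) had 31.9, 133 and 196 RPM in G12D tumours, against 0, 38.4 and 89.6 RPM in WT tumours. In 5 of 6 G12D tumours it exceeded every WT tumour, and the lowest G12D value lies among the WT values. The log2 fold change was 1.56 ± 0.57 (SE; adjusted p = 0.391 in limma). Relative to all peaks it was 1.12 with all tumours and 0.68 without WT replicates 5 and 6. This peak too stood in the G12D list only. With library quality weights, which limma estimates from the spread of each library around the fit, WT replicate 5, WT replicate 6 and G12D replicate 3, the 3 shallowest libraries, had the lowest weights (0.0753, 0.141 and 0.312, against 0.52 to 5.96 in the others). In that fit the log2 fold change was 1.29 ± 0.28 (SE; adjusted p = 0.0213 in limma), and 109 peaks were called (1.44%). In the authors' deposited table the log2 fold change of this peak was 1.97, with an adjusted p of 0.0194.

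The other Cd44 peaks had smaller differences. Peak 2 (chr2:102853051-102853109, exon, miR-19-3p 8mer) had 102, 164 and 505 RPM in G12D tumours, against 32.7, 141 and 216 RPM in WT tumours. Peak 3 (3′ UTR, miR-21-3p 8mer) had 27.1, 48.3 and 75.3 RPM in G12D tumours, against 0, 39.4 and 55.3 RPM in WT tumours. Peak 4, the last in the 3′ UTR (chr2:102811408-102811465, miR-16-2-3p 7mer), had 20.7, 42.7 and 59.2 RPM in G12D tumours, against 0, 51.5 and 124 RPM in WT tumours. Peaks 2 and 3 had relative log2 fold changes of 0.46 and 0.42, and peak 4 had -0.31. All 3 pairs of ranges overlap.

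Within Cd44, the reads were spread differently over the peaks by tumour. Peak 4 held 9.84% ± 3.50 of the gene's reads in G12D (SD, n = 6) and 20.6% ± 8.09 in WT (SD, n = 4), counting tumours with at least 10 reads on the gene. Peak 1 held 29.4% ± 15.1 in G12D and 17.1% ± 6.94 in WT (SD, n = 6 and n = 4). WT replicates 5 and 6 had too few reads, which left replicate 4 as the only WT tumour of batch 2. The means of the genotypes are therefore not balanced by batch. In batch 1 peak 1 held 12.9% to 21.04% in G12D and 11.8% to 17.3% in WT, ranges that overlap. In batch 2 it held 39.1% to 47.8% in G12D and 26.8% in WT replicate 4. In an exact permutation test of G12D and WT labels within batches (two-sided), p was 0.025 for peak 4 and 0.0625 for peak 1, and the adjusted p over the 15 shares tested was 0.375 and 0.469. The smallest p this design allowed for Cd44 was 0.0125. None of the 15 shares passed the threshold. Between batches, Cd44 peak 1 held 23.7 points more of the gene's reads in batch 2 (n = 4) than in batch 1 (n = 6). For Lgr4 peaks 1, 2 and 5 the difference was -27.5, 9.58 and 15.7 points (n = 5 and n = 6). Each of these had an adjusted p of 0.075 in the exact permutation test. This batch test of the shares was added after the values were seen.

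**Figure D4:**
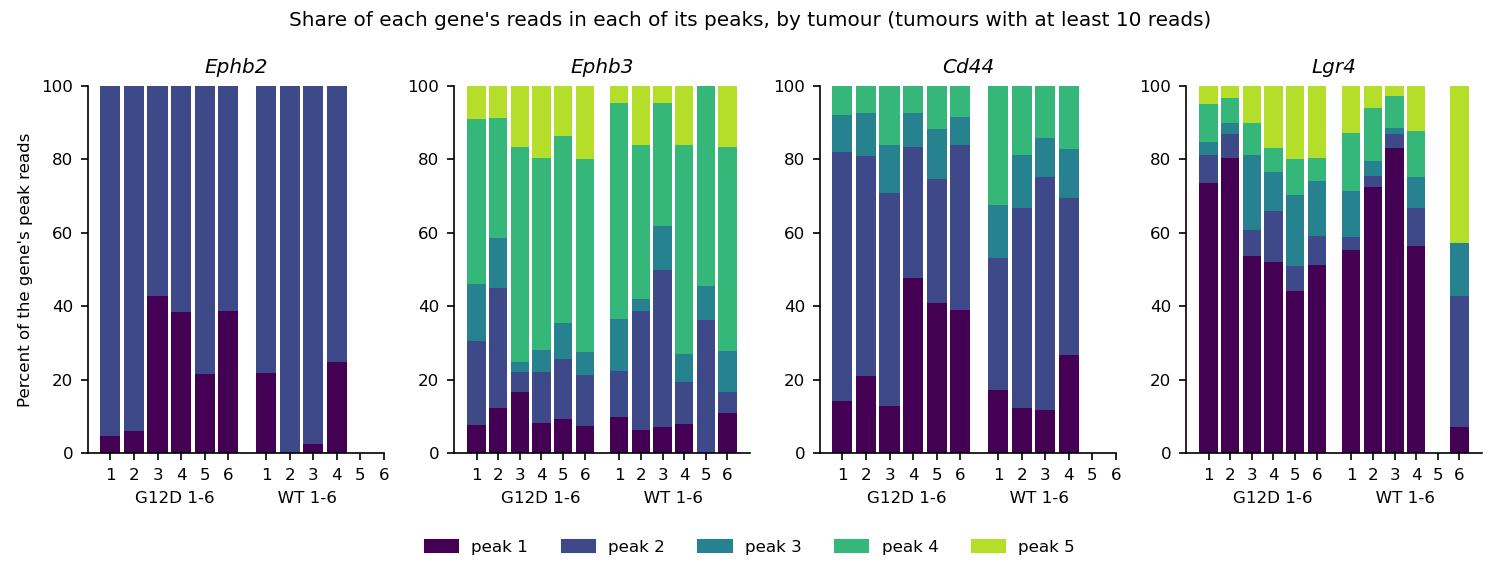
Percent of each gene's peak reads (y axis) in each of its peaks, numbered 5′ to 3′, for tumours with at least 10 reads on the gene. Cd44 peak 4, the top segment, averaged 9.84% in G12D and 20.6% in WT, and Ephb3 peak 4 about the same in both at 48.5% and 50.1%.

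Tnfrsf19 was measured at a single 3′ UTR peak (chr14:60966273-60966327, minus strand), which carries the miR-24-3p 8mer and 6mers for miR-21ac-5p and miR-30a-3p. It had 13.8, 35.8 and 58.6 RPM in G12D tumours, against 47.9, 111 and 298 RPM in WT tumours. Of the WT tumours 5 exceeded every G12D tumour. The mean was 34.9 ± 19.1 RPM in G12D and 136 ± 93.3 RPM in WT (SD, n = 6 each). The log2 fold change was -1.58 ± 0.46 (SE), or -2.03 relative to all peaks, which put it at the percentile 0.463. The unadjusted p was 0.00259 and the adjusted p 0.386 in limma.

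The difference at Tnfrsf19 was -1.34 in batch 1 and -2.73 in batch 2 on the relative scale. The batch 2 value is relative to a median of 0.89 over all peaks, against 0.02 in batch 1. The batch 2 value also rests in part on 3 and 17 reads in WT replicates 5 and 6, the latter being the highest WT value, 298 RPM. Without WT replicates 5 and 6 the difference at Tnfrsf19 was -1.52, with an adjusted p of 0.259 in limma. It passed the threshold in DESeq2 with its own size factors (log2 fold change -1.97 ± 0.46, SE, adjusted p = 0.00326), which called 75 of 7653 peaks lower (0.98%), and with library quality weights (-1.27 ± 0.32, SE, adjusted p = 0.0403 in limma), which called 33 lower (0.436%). In the authors' deposited table its log2 fold change was -0.95, with an adjusted p of 0.143. The call therefore depends on the fit, while the lower G12D value was seen under each of the 26 settings run, the main one included, from -2.76 to -1.21 on the relative scale.

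Levels can be set side by side between genes only per length of peak. Per 100 peak bases, Lgr4 had 248 ± 178 RPM in G12D and 304 ± 264 RPM in WT, and Ephb2 had 206 ± 86.2 RPM in G12D and 88.7 ± 47.2 RPM in WT (SD, n = 6 each). Cd44 had 190.4 ± 80.8 RPM in G12D and 102 ± 61.4 RPM in WT, and Ephb3 had 117 ± 47.3 RPM in G12D and 124 ± 52.2 RPM in WT. Tnfrsf19 had 63.4 ± 34.7 RPM in G12D and 247 ± 170 RPM in WT. Over both batches the order in G12D ran Lgr4, Ephb2, Cd44, Ephb3, Tnfrsf19, and neighbours differed by less than the larger of their SDs except Ephb3 and Tnfrsf19. The place of Lgr4 in that order came from batch 1. In batch 2 the G12D order ran Ephb2 (175 ± 45.2), Cd44 (158 ± 40.1), Ephb3 (157 ± 18.3), Lgr4 (121 ± 24.4) and Tnfrsf19 (80.4 ± 31.9 RPM per 100 bases; SD, n = 3). In batch 1 it ran Lgr4 (375 ± 173), Ephb2 (237 ± 117), Cd44 (223 ± 108), Ephb3 (77.8 ± 24.7) and Tnfrsf19 (46.5 ± 33.6). By tumour, Ephb2 was the highest of the 5 genes in 3 G12D tumours, Lgr4 in 2 and Ephb3 in 1. Tnfrsf19 was the lowest of the 5 genes in 5 of 6 G12D tumours and in 0 of 6 WT tumours, and the highest in 3 WT tumours. In WT the order over both batches ran Lgr4, Tnfrsf19, Ephb3, Cd44, Ephb2, and all neighbours differed by less than the larger of their SDs. Within batches Tnfrsf19 was the highest of the 5 in all 3 WT tumours of batch 2 (352 ± 182 RPM per 100 bases, against 105 ± 52.4 for Lgr4), and Lgr4 in all 3 of batch 1 (503 ± 230, against 142 ± 74.3 for Tnfrsf19; SD, n = 3). The shallow WT replicates 5 and 6 are in batch 2, with 3 and 17 reads on Tnfrsf19 and 5 and 14 on Lgr4. They had 1 and 4 reads on Ephb2 and 1 and 5 on Cd44. WT replicate 4 had 142 reads on Tnfrsf19. The WT means and order therefore rest in part on few reads.

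Among the miRNA families with sites in these peaks, 34 had a measured member, and the level of the most abundant member was compared between genotypes. Values are the authors' normalised counts. The most abundant was miR-21a-5p, with a 6mer in the Tnfrsf19 peak. Among the families with a 7mer or 8mer site the highest were miR-194-5p, with 13399 ± 1027 in G12D and 12775 ± 1259 in WT, and miR-196b-5p, with 12474 ± 2111 in G12D and 11924 ± 1742 in WT (SD, n = 6 each). For miR-19b-3p the mean was 11685 ± 3441 in G12D and 11275 ± 1505 in WT. For miR-24-3p, the 8mer family at Tnfrsf19, it was 7712 ± 1506 in G12D and 7747 ± 1355 in WT (SD, n = 6 each). At miR-29a-3p, the family at Ephb2 peak 1, the means were 805 ± 82.4 in G12D and 963 ± 80.4 in WT, a log2 fold change of -0.26 ± 0.09 (SE; adjusted p = 0.148 in limma).

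Of those 34 miRNAs, 1 passed the limma threshold as higher and 1 as lower in G12D, against 6 higher (2.11%) and 8 lower (2.82%) of 284 miRNAs tested (4.93% in all). miR-218-5p, with a site in Lgr4 peak 5, had 201, 315 and 441 normalised counts in G12D tumours, against 144, 154 and 190.2 in WT tumours. These ranges do not overlap, and the log2 fold change was 0.93 ± 0.17 (SE, adjusted p = 0.0119 in limma). miR-132-3p, with a 6mer in the same peak, had 176, 215 and 277 in G12D tumours, against 239, 502 and 732 in WT tumours. Its means were 222 ± 43.9 in G12D and 471 ± 183 in WT (SD, n = 6 each), with an adjusted p of 0.0449 in limma. That call was lost in most fits that left out 1 tumour, though without WT replicates 5 and 6 the adjusted p was 0.0117 in limma. The other 32 had log2 fold changes between -0.61 and 0.84. miR-449a-5p and miR-193a-3p, which are not the most abundant of their families and were picked out after their values were seen, had log2 fold changes of -1.43 ± 0.28 (adjusted p = 0.0119 in limma) and 1.27 ± 0.32 (adjusted p = 0.0449 in limma). Without WT replicates 5 and 6 the adjusted p of miR-449a-5p was 0.0037 in limma, and that of miR-193a-3p 0.156, with a log2 fold change of 1.01, so its call was lost. miR-449a-5p averaged 82.1 in G12D and 240 in WT, beside miR-34a-5p with the same seed at 6154 in G12D and 6561 in WT.

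**Figure D5:**
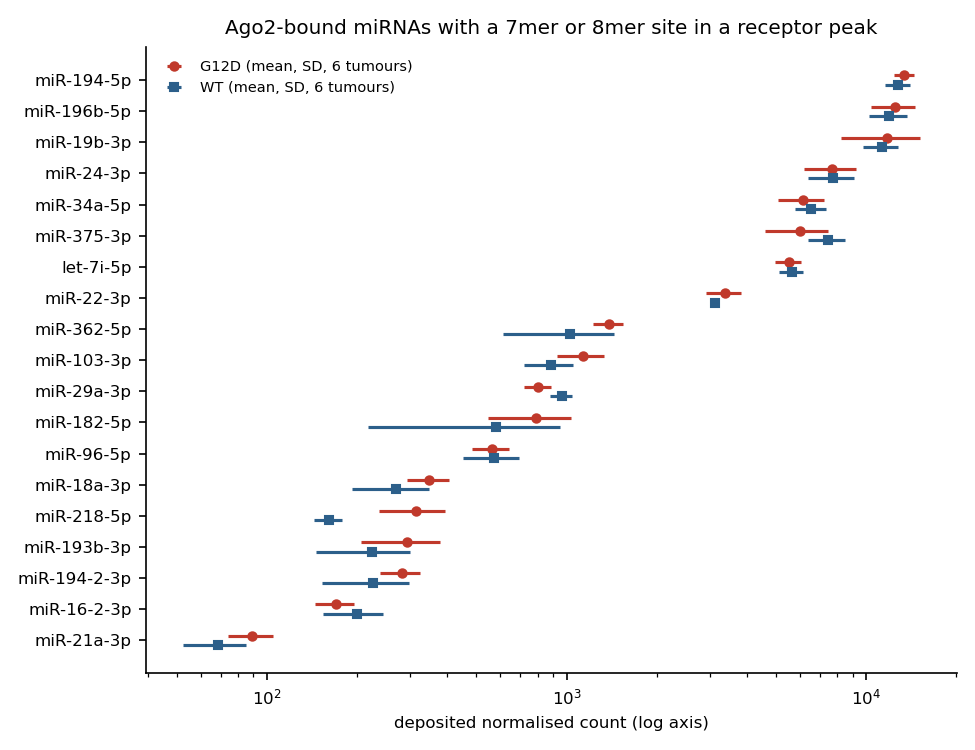
Normalised count (x axis, log scale, mean and SD over 6 tumours per genotype) of the most abundant miRNA of each family with a 7mer or 8mer site in a receptor peak. miR-218-5p is set apart, at 315 in G12D and 161 in WT.

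Related genes were described from lists chosen with the members left out. Of 20 other Eph receptors and ephrins, 5 had a peak. The highest was Epha4, an Eph receptor, at 709 ± 163 RPM in G12D and 568 ± 233 RPM in WT (SD, n = 6 each), with an adjusted p of 0.580 in limma. Of 20 other crypt stem cell genes, 13 had a peak, with a median relative log2 fold change of -0.87 and 4 above 0, and -0.64 without WT replicates 5 and 6. Limma called 0 of the 13, and DESeq2 with its own size factors called 3 lower, against 1.53% of all genes, and 0 higher. These were Nkd1, Sox4 and Axin2, of which Nkd1 and Axin2 are feedback inhibitors of Wnt signalling and Sox4 is a transcription factor, with adjusted p-values of 0.0028, 0.032 and 0.0468 in DESeq2. With the deposited size factors DESeq2 called 0 of the 13, and these 3 genes had adjusted p-values of 0.154, 0.995 and 0.936. Nkd1 averaged 129 ± 74.6 RPM in G12D and 426 ± 342 RPM in WT. The most abundant of that list was Slc12a2, an ion cotransporter, at 3637 ± 1493 RPM in G12D and 2616 ± 968 RPM in WT.

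Of 21 Wnt receptors and R-spondins, 7 had a peak, with a median relative value of 0.35 (0.03 without WT replicates 5 and 6) and 0 called in limma. The highest was Fzd5, a Wnt receptor, at 173 ± 101 RPM in G12D and 102 ± 88.0 RPM in WT (adjusted p = 0.45 in limma). Of 20 Cd44 partners and splicing genes, 11 had a peak, with a median of 0.10 (0.01 without WT replicates 5 and 6) and 0 called in limma. Met, the HGF receptor, was the most abundant at 2426 ± 610.1 RPM in G12D and 2099 ± 1111 RPM in WT. Of 20 other TNF receptor superfamily genes, 9 had a peak and 0 were called in limma. Their median was -0.11 with all tumours and 0.15 without WT replicates 5 and 6, so no direction held. Tnfrsf12a, the TWEAK receptor, was the most abundant at 900 ± 628 RPM in G12D and 672 ± 297 RPM in WT. Over all genes the relative median is 0 by construction. In DESeq2 with its own size factors, which called 0.639% of all genes higher, 1 gene passed as higher in each of the last 2 lists and 0 in the Wnt receptor list. Msn, which encodes moesin, a linker of Cd44 to the cytoskeleton, averaged 276 ± 91.2 RPM in G12D and 74.3 ± 54.9 RPM in WT (adjusted p = 0.0046). Tnfrsf23, a decoy receptor for TRAIL, averaged 45.8 ± 16.4 RPM in G12D and 9.89 ± 9.12 RPM in WT (adjusted p = 0.0428).

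The tissue was checked against marker genes. Of 12 colon epithelium genes, 9 had a peak, and their summed level was 14404 to 26277 RPM in G12D and 5554 to 36101 RPM in WT. Of 12 fibroblast and smooth muscle genes, 3 had a peak, at 603 to 1702 RPM in G12D and 131 to 1786 RPM in WT, and of 12 endothelium and nerve genes only Ret had one, at 63.2 to 208 RPM in G12D and 0 to 130 RPM in WT. None of 12 leukocyte genes had a peak. A peak needs Ago2 binding as well as RNA, so this does not measure leukocyte content. Limma called 0 of these marker genes, and DESeq2 with its own size factors called Cdx2, an intestinal transcription factor, higher, with 165 ± 106 RPM in G12D and 30.8 ± 18.0 RPM in WT (adjusted p = 0.0037). The ranges overlap for each list, and their part in the receptor values was not tested.

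More genes of the lists passed in DESeq2 with deposited size factors, a fit in which 15.5% of all genes were called higher and the log2 fold changes of all genes had a median of 0.91. It called 1 of the 5 Eph and ephrin genes (Efnb1, an ephrin-B ligand), 3 of the 7 Wnt receptors (Fzd1, Fzd5 and Lrp5) and 3 of the 11 Cd44 partners (Ezr, Msn and Erbb2). It also called 4 of the 9 TNF receptor genes (Tnfrsf11a, Tnfrsf12a, Tnfrsf21 and Tnfrsf23), 3 of the 9 colon epithelium genes (Krt8, Cdx2 and Car1) and Ret. All were higher in G12D, with adjusted p-values of 0.0003 to 0.0384 in DESeq2, and 0 genes of any list were called lower. The genes named as called by DESeq2 were picked out after their values were seen.

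The genes whose summed values ran most like those of a receptor over the 12 tumours were named by rank correlation, out of 2857 genes compared. For Tnfrsf19 they were Arhgef26, Wif1 and Notum, with Spearman's rho of 0.96, 0.94 and 0.92. For Lgr4 they were Ankrd28, Tom1l1 and Ap5m1 (1.0, 0.99 and 0.99), for Ephb2 Hist1h2bk, Ralgapa2 and Vldlr (0.96 each), for Cd44 Rab1a and Midn (0.94 and 0.92), and for Ephb3 AC129188.1, Cep295 and Foxo3 (0.89, 0.88 and 0.87). Among the receptors, Ephb2 and Cd44 had a rho of 0.79, Ephb2 and Ephb3 one of -0.10, and Ephb3 and Lgr4 one of -0.63. All points share library, depth and batch, so these are descriptions over n = 12 tumours.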

How the data were processed

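Each tumour gave a miRNA, an mRNA and an input library (36 samples). The submitters' processing notes list STAR 2.5.2b and DESeq2 beside the builds mm10 and GRCm38, with no word on what each was used for or on the peak caller. The deposited signal tables give size-factor-normalised counts, scaled by the authors library by library, for 7730 merged peaks and 596 miRNAs. The columns give model and number but not library type, and peak columns were taken as mRNA libraries. The authors' deposited table of log2 fold changes and p-values is named where used; their peak lists also hold a deposited score without a unit, not used here. Every value was a whole multiple of 1 read within 0.001 reads (100%), so reads were recovered. For peaks, RPM was computed from them; miRNA libraries held 289462 to 471587 reads.

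The main tests were limma-trend 3.58.1 in R 4.3.3: log2(RPM + 10) for peaks and genes with a mean of at least 10 RPM, and log2(normalised count + 1) for miRNAs averaging at least 10, with batch as covariate and Benjamini-Hochberg adjustment over all features at 0.05. The added 10 understates fold changes of low peaks. Genes are sums of their peaks. edgeR 4.0.16 and DESeq2 1.42.0 on recovered reads were alternatives, as were other pseudocounts, no filter, quality weights, left-out tumours and single batches. Tested on simulated data, the peak procedure recovered 183 of 200 peaks changed 4-fold with 5 false calls among 7564, and the miRNA procedure 60 of 60 with 2 false calls among 285. The simulated reads kept the real means and library sizes but had no batch effect and the same added spread for every feature. Changed features were drawn only from those above the median level. These counts therefore do not show how many changes of that size the tests would find in the real libraries. Whether each numbered sample is a separate mouse is not spelled out by the labels, and p-values cover only the spread among these samples. The genes, lists and tests were chosen with earlier results of these data known. Named were the 5 receptors with every peak, the most abundant gene of each list and any called in limma (none was; those called by DESeq2 were added later), the most abundant miRNA of each seed family, and the 3 genes most like each receptor among those of mean RPM at least 50, of which 1 is not reported here; the colon and stromal markers are given as sums. RefSeq held sequences for 54 of 57 family miRNAs.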

Additional observations from a re-analysis of the deposited data

Results flagged for a closer look

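Among 42 groups of 6 tumours screened for a tumour far from the others, 1 was picked out, and chance alone picks out about 1 in 20 such groups. The summed Ephb2 signal of G12D replicate 1 was 420.7 RPM, against 140 to 233 RPM in the other 5 G12D tumours, a gap that took up more of the group's range than Dixon's 95% limit allows.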

How the results depend on the processing

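Counts of calls moved mainly with the count models and the weights. Limma on the deposited values or with TMM totals called 0 peaks and 0 genes, as the main test did. For peaks, G12D higher and lower, edgeR gave 1 and 11, DESeq2 44 and 75 with its own size factors and 760 and 27 with the deposited ones, quality weights 76 and 33, and leaving out WT replicates 5 and 6 gave 1 and 5. A pseudocount of 50 and batch 2 alone each gave 1 higher. For gene sums the same settings gave 2 and 10 (edgeR), 25 and 60, 606 and 22 (DESeq2), 52 and 22 (weights) and 1 and 5 (without WT replicates 5 and 6). DESeq2 with deposited size factors called 11 miRNAs higher and 20 lower. Leaving out 1 tumour gave 0 to 1 peaks higher and 0 to 5 lower, 0 genes higher and 0 to 7 lower, and 3 to 6 miRNAs higher and 4 to 13 lower. miR-132-3p lost its call in 10 of the 12 such fits.

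With the replicate number as a block, 0 peaks were higher and 3 lower, 0 genes passed, and 3 miRNAs were higher. Deviations of same-numbered tumours correlated at -0.52 to 0.30, and only replicate 6 correlated best with its own number. With 3 tumours per genotype and batch, this cannot settle whether the numbers pair the tumours. A blocked test of the shares was not run.

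The relative values of the 4 multi-peak genes and of Tnfrsf19 kept their sign in all settings run. Those of single peaks changed sign as follows, and the cause was not tested. Ephb2 peak 2 was -0.061 in batch 2 alone. Ephb3 peak 1 was 0.013 on deposited values, 0.0016 with TMM totals, 0.081 with pseudocount 1, 0.0061 unfiltered, 0.14 with weights, 0.077 without WT replicates 5 and 6 and 0.19 in batch 1 alone. With weights Ephb3 peak 3 was 0.050 and Lgr4 peak 2 was 0.16, and Lgr4 peak 2 was 0.18 without WT replicates 5 and 6 and 0.48 in batch 1 alone. Leaving out 1 tumour, Ephb3 peak 1 ranged from -0.21 to 0.18, Ephb3 peak 5 from -0.014 to 0.40, Lgr4 peak 1 from -0.62 to 0.020, Lgr4 peak 3 from -0.096 to 0.28 and Lgr4 peak 5 from -0.60 to 0.0099. Without WT replicates 5 and 6, log2 fold changes were 0.0031 for miR-16-1-3p, -0.028 for miR-183-5p, -0.0012 for miR-194-5p, 0.066 for miR-21a-5p, 0.046 for miR-24-3p, 0.25 for miR-28a-3p and 0.016 for miR-671-5p. Leaving out 1 tumour, miR-183-5p ranged from -0.037 to 0.086, miR-19b-3p from -0.067 to 0.090, miR-21a-5p from -0.085 to 0.017, miR-24-3p from -0.055 to 0.038, miR-28a-3p from -0.26 to 0.095 and miR-96-5p from -0.091 to 0.078. The share of Ephb3 peak 4 differed by 0.846 points without WT replicates 5 and 6 and by -4.97 to 1.60 points leaving out 1 tumour, and that of Lgr4 peak 1 by -7.67 points and -7.67 to 11.3 points. In WT replicate 5, 1 read is worth 32.7 RPM, which limits what single peaks can show there.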
